A study of Mus musculus with 18 samples.

Results

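The genes described here are 46 liver genes of glucose handling, insulin response and nitrogen metabolism, taken as a list of symbols for gluconeogenesis, glycolysis and fructose use, glycogen, insulin and IGF signalling, the urea cycle and amino acid breakdown. A gene was represented by its brightest probe set among those paired with a single symbol, which gave 40 measured members out of 17097 genes on the array. Pfkfb1, Irs2, Glul, Gls2, Got1 and Sds were not analysed here. The arrays measured RNA from livers of females, 6 to 8 weeks old, in 2 models of raised transintestinal cholesterol excretion, the loss of cholesterol through the gut wall without bile. The chronic model compared mice carrying a liver transgene for NPC1L1, a sterol uptake protein (5 arrays), with wild-type mice (5 arrays), both of strain C57BL/6. The acute model compared animals treated with an ACAT2 antisense oligonucleotide (ASO), directed at an enzyme that esterifies cholesterol (4 arrays), with mice given a non-targeting control ASO (4 arrays), both of strain C57BL/6N. The study sought regulators of the return of cholesterol from macrophages for excretion. The labels state neither the promoter and species of the transgene nor the dose and duration of the ASO, and they do not say that arrays of a group came from separate animals, so p-values speak only of spread among the samples. Feeding state and hour of collection are not stated either.

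The liver stores glucose as glycogen after a meal and releases it during a fast, first from glycogen and then by making it anew from lactate, glycerol and amino acids. Insulin, acting through its receptor, Irs proteins and Akt kinases, keeps the FOXO transcription factors out of the nucleus and so lowers transcription of G6pc, Pck1 and Igfbp1, while glucagon, through cyclic AMP, and glucocorticoids raise many of the same genes. Nitrogen from the amino acids that are broken down is turned into urea in periportal hepatocytes, so amino acid enzymes, urea cycle enzymes and gluconeogenic enzymes are commonly regulated together in fasting.

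The promoters of 3 textbook insulin-repressed genes are shown with matches to elements of the insulin, cyclic AMP and glucocorticoid responses. Igfbp1 and G6pc are also among the 5 members whose levels are compared across arrays below. Each run is the 250 bases before the RefSeq gene start in build GRCm38.p6, on the + strand, at chr11:7197537-7197786 for Igfbp1, chr11:101367466-101367715 for G6pc and chr2:173152823-173153072 for Pck1. Capitals mark matches to 6 motifs searched on both strands, namely CAAAACA (insulin response core), GTAAACA (forkhead core), TGACGTCA (cyclic AMP response) and the shorter TGACG within it, AGAACA (glucocorticoid receptor) and CACGTG (E-box).
Igfbp1: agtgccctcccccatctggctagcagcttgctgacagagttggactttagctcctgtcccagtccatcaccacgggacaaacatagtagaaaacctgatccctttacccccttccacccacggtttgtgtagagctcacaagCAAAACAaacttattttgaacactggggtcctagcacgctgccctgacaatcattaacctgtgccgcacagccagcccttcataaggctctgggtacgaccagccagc
G6pc: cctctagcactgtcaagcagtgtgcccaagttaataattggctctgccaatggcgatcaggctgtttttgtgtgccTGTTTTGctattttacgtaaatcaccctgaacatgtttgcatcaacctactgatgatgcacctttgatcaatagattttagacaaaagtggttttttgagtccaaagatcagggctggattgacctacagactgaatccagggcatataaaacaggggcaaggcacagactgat
Pck1: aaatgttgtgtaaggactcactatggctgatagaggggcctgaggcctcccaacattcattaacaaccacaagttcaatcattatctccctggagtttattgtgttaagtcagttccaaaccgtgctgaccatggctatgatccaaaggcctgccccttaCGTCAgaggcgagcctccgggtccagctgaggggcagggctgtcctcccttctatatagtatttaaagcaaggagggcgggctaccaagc
Igfbp1 held CAAAACA from position -108 to position -102 before its start, and G6pc held it on the other strand from position -174 to position -168. Pck1 held no CAAAACA in this window, and its only match was TGACG on the other strand from position -90 to position -86. Promoters were found for 31 of the 40 measured members, with 39 promoters between them. CAAAACA was present in 4 of these 39 promoters (10.3%), those of G6pc, Gckr, Irs1 and Igfbp1, and in 5.56% of the 32851 promoters in the table. TGACG was present in 28.2% of member promoters and 17.8% of all, CACGTG in 20.5% and 6.02%, and AGAACA in 5.13% and 16.1%. TGACGTCA, every match of which is also a match to TGACG, was in 2.56% of member promoters and 1.55% of all, and GTAAACA was in 0 member promoters and 3.17% of all. These are letter matches in a short window, with no binding measured.

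The values are RMA log2 levels, and the median of an array was 4.61 to 4.65 for transgenic and wild-type liver but 4.38 to 4.40 after either ASO, so levels are set side by side only within a model. Hepatocyte markers were high on every array, with the mean of 7 of them 12.34 to 12.42 across transgenic and wild-type liver and 12.13 to 12.28 across both ASO groups. Some arrays carried more RNA of other cells. The mean level of 8 Kupffer cell and macrophage markers was 7.76 to 8.55 on the transgenic arrays, against 9.44 on wild-type array 2 and 7.60 to 8.30 on the other wild-type arrays. It was 9.09 on ACAT2 ASO array 1 and 7.20 to 8.05 on the other ACAT2 ASO arrays, and 8.66 on control ASO array 4 against 7.24 to 7.29 on the other control arrays, and 8 of 8 markers lay above 0 in the ASO comparison (median 0.44) with 0 called. Values without 1 or all of these arrays are given for some members only. In liver pieces, fewer cells of a type and less RNA per cell cannot be told apart.

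No member passed the test in either model. Under limma with Benjamini-Hochberg adjustment over all genes (adjusted p under 0.05), 0 of 40 members were called for transgenic against wild-type liver, where 0.228% of all genes were called (39 genes), and 0 of 40 for ACAT2 ASO against control ASO, where 0.597% were called (102 genes). At an unadjusted p under 0.05, 4 members (10%) stood out in the transgenic comparison, with Pcx above 0 and Cps1, Ass1 and Hal below 0, beside 10.9% of all genes. Likewise 4 members (10%) did in the ASO comparison, Pcx, Gckr, Igf1 and Hal, all below 0, beside 13.3% of all genes. The transgenic and wild-type groups did not overlap for 1 member, Igf1, or 2.5% of members beside 2.22% of all genes. The ACAT2 ASO and control ASO groups did not overlap for 1 member, Gckr, or 2.5% beside 9.05% of all genes. Each of these shares lay close to or below the share of all genes, so none is a result about these genes as a group.

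Estimated changes lay on both sides of 0. In transgenic against wild-type liver 20 members lay above 0 and 20 below, with a median change of -0.00027 on the log2 scale beside 0.0058 for all genes. After ACAT2 ASO against control ASO 17 lay above and 23 below, with a median of -0.05 beside -0.00056. The 95% interval of the change stayed within 1.5-fold in either direction for 32 of 40 members for the transgene and 29 of 40 for the ASO, so for most of these enzymes a change larger than 1.5-fold lies outside the interval. The shares over all genes were 95.5% and 93.1%. The members whose intervals reached further were mostly those with a wide spread within groups, described below.

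**Figure D1:**
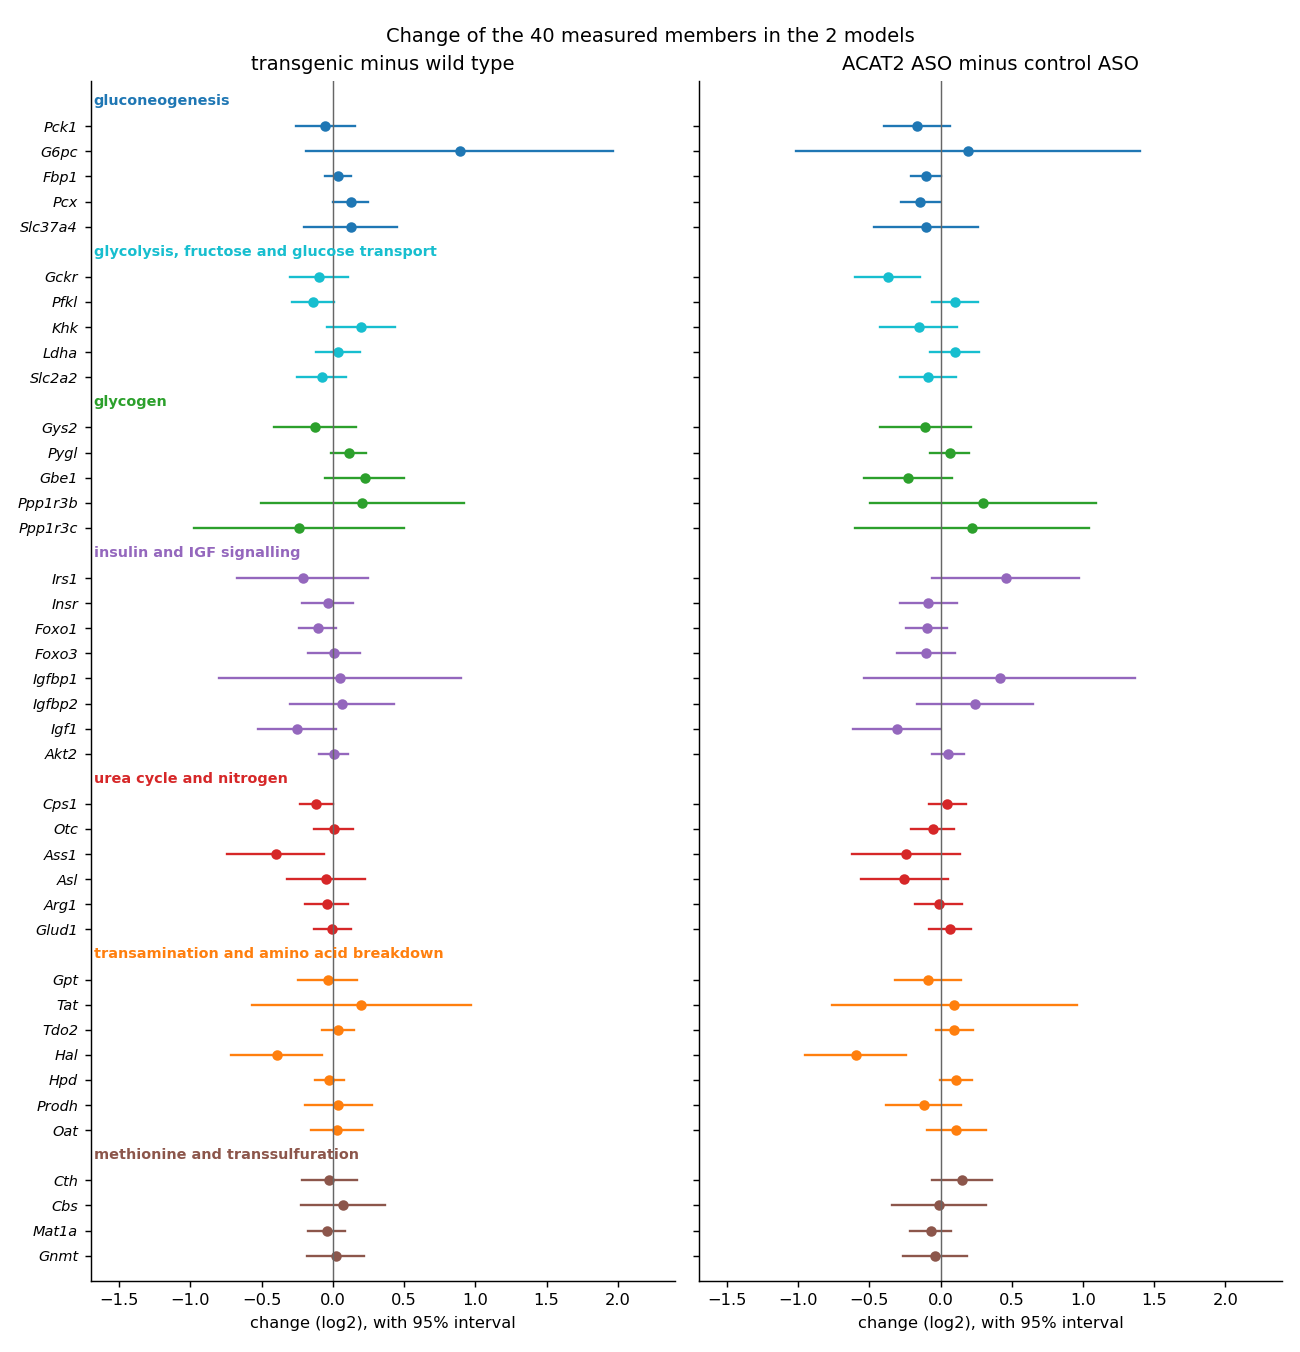
Change of each of the 40 measured members on the log2 scale, transgenic minus wild type on the left and ACAT2 ASO minus control ASO on the right, with points for the change, lines for its 95% interval, and colours for the role. Intervals are narrow for enzymes such as Fbp1, Akt2 and Hpd and wide for G6pc, Igfbp1, Tat, Ppp1r3b and Ppp1r3c, and 0 of 40 members passed the test in either comparison.

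Among gluconeogenic genes, Pcx, the pyruvate carboxylase that makes oxaloacetate from pyruvate, had the smallest p in each model. It measured 10.65, 10.68, 10.69, 10.49 and 10.53 on the transgenic arrays and 10.43, 10.41, 10.37, 10.67 and 10.54 on the wild-type arrays. Transgenic arrays 2 and 3 exceeded every wild-type array, wild-type array 4 lay above the other transgenic arrays, and the change was 0.12 ± 0.06 (SE, adjusted p = 0.447). After ACAT2 ASO Pcx measured 10.19, 10.28, 10.16 and 10.24, against 10.41, 10.28, 10.35 and 10.41 after control ASO. ACAT2 ASO array 2 reached the lowest control array and the other ACAT2 ASO arrays lay below it, with a change of -0.14 ± 0.06 (adjusted p = 0.351). Fbp1, fructose-bisphosphatase, had 12.81, 12.84, 12.73, 12.85 and 12.77 in transgenic liver and 12.80, 12.74, 12.76, 12.82 and 12.71 in wild-type liver, a change of 0.04 ± 0.04 (adjusted p = 0.846). It had 12.40, 12.63, 12.54 and 12.48 under ACAT2 ASO, against 12.67, 12.61, 12.55 and 12.62 under control ASO, a change of -0.10 ± 0.05 (adjusted p = 0.383). Without ACAT2 ASO array 1 the ASO change of Fbp1 was -0.07 (adjusted p = 0.683). Fbp1 was one of the steadiest members, its groups overlapping in both models.

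G6pc, the catalytic subunit of glucose-6-phosphatase that frees glucose for export, had the largest estimated change of any member and also the widest spread. Its levels were 10.27, 10.60, 9.24, 10.31 and 9.60 in transgenic liver and 10.28, 6.55, 9.08, 9.74 and 9.90 in wild-type liver. Wild-type array 2 lay far below every other array, and without it the groups covered nearly the same range. The change was 0.89 ± 0.51 (adjusted p = 0.562) with all arrays and 0.25 (adjusted p = 0.789) without wild-type array 2, the array with the high macrophage markers. After ACAT2 ASO G6pc was at 10.97, 10.97, 11.34 and 11.57, and after control ASO at 11.14, 10.37, 11.46 and 11.11, with overlap and a change of 0.19 ± 0.57 (adjusted p = 0.927). Slc37a4, which carries glucose-6-phosphate to that enzyme, had a change of 0.12 ± 0.16 for the transgene and of -0.10 ± 0.17 for the ASO, and it too had its lowest wild-type value, 9.82, on array 2. The probe set of Pck1, the cytosolic PEP carboxykinase, lay near the low end of the scale, below the 4.74 under which the lowest 40% of genes fall. It read 3.41, 3.57, 3.51, 3.50 and 3.44 in transgenic and 3.48, 3.54, 3.53, 3.62 and 3.52 in wild-type liver, and 3.65, 3.74, 3.92 and 3.64 under ACAT2 ASO, against 3.58, 4.09, 4.25 and 3.69 under control ASO. The changes of -0.05 ± 0.10 and -0.17 ± 0.11 (adjusted p = 0.908 and 0.556) are those of a dim probe set.

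Of the members for glucose use, Gckr, the regulatory protein that holds glucokinase in the nucleus, was the only one whose ASO groups did not overlap. It measured 9.08, 9.52, 9.48 and 9.34 under ACAT2 ASO, against 9.59, 10.02, 9.70 and 9.60 under control ASO. All ACAT2 ASO arrays lay below all control arrays, array 1 being the lowest, and the change was -0.37 ± 0.11 (adjusted p = 0.124). In transgenic liver Gckr was at 9.03, 9.22, 9.07, 9.27 and 9.07, and in wild-type liver at 9.34, 9.26, 9.24, 9.32 and 8.98, a change of -0.10 ± 0.10 (adjusted p = 0.795), wild-type array 5 being the lowest of all. Khk, ketohexokinase, the first enzyme of fructose use, had 11.10, 11.41, 11.01, 11.41 and 11.12 in transgenic liver and 11.30, 10.80, 11.06, 11.18 and 10.73 in wild-type liver (change 0.20 ± 0.11, adjusted p = 0.572). It had 10.39, 10.77, 10.70 and 10.79 under ACAT2 ASO, against 10.89, 10.92, 10.64 and 10.81 under control ASO (change -0.15 ± 0.13, adjusted p = 0.675). Without ACAT2 ASO array 1 the ASO change of Khk was -0.06 (adjusted p = 0.926). Groups overlapped for Khk in both models.

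Pfkl, the liver subunit of phosphofructokinase, was dim, with 5.18, 5.29, 5.35, 5.51 and 5.34 in transgenic and 5.39, 5.36, 5.59, 5.48 and 5.55 in wild-type liver (change -0.14 ± 0.07, adjusted p = 0.490). It had 4.78, 4.44, 4.64 and 4.59 under ACAT2 ASO, against 4.495, 4.418, 4.633 and 4.501 under control ASO (change 0.10 ± 0.08, adjusted p = 0.636). Its groups overlapped in both models, and its 2 other probe sets had changes of 0.0038 and 0.05 for the transgene and of -0.08 and -0.03 for the ASO, on the other side of 0 from the brightest one each time. Ldha, lactate dehydrogenase A, and Slc2a2, the GLUT2 glucose transporter, had changes of at most 0.10 in size in either model, with adjusted p of 0.665 or more.

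Among glycogen genes, Pygl, the liver phosphorylase that breaks glycogen down, had 11.57, 11.75, 11.63, 11.72 and 11.48 in transgenic liver and 11.59, 11.43, 11.47, 11.57 and 11.52 in wild-type liver, a change of 0.11 ± 0.06 (adjusted p = 0.512). It had 11.20, 11.35, 11.14 and 11.19 under ACAT2 ASO, against 11.13, 11.28, 11.11 and 11.10 under control ASO, a change of 0.06 ± 0.06 (adjusted p = 0.747). Both pairs of groups overlapped. Gbe1, the enzyme that adds branch points to glycogen, had 9.45, 9.59, 9.72, 9.59 and 9.64 in transgenic liver and 9.65, 9.32, 9.25, 9.40 and 9.25 in wild-type liver. Only wild-type array 1 reached into the transgenic range, and the change was 0.22 ± 0.13 (adjusted p = 0.575). After ACAT2 ASO Gbe1 was at 9.17, 9.45, 9.54 and 9.68, and after control ASO at 10.16, 9.73, 9.63 and 9.25, a change of -0.23 ± 0.15 (adjusted p = 0.543). The control arrays spanned nearly a whole log2 unit there and enclosed most ACAT2 ASO values, and the change of Gbe1 was -0.075 (adjusted p = 0.912) without control array 1, -0.13 without ACAT2 ASO array 1 and -0.38 (adjusted p = 0.218) without control array 4. Gys2, the liver glycogen synthase, had changes of -0.12 ± 0.14 and -0.11 ± 0.15 in the transgenic and ASO models. Ppp1r3b and Ppp1r3c, which bring protein phosphatase 1 to glycogen, had changes of 0.21 ± 0.34 and -0.24 ± 0.35 for the transgene and of 0.30 ± 0.38 and 0.22 ± 0.39 for the ASO, standard errors several times those of Pygl.

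Of the insulin and IGF signalling genes, Igf1, the growth factor that the liver secretes under growth hormone, was the only member with transgenic and wild-type groups apart. It measured 11.52, 11.24, 11.10, 11.33 and 11.44 on the transgenic arrays and 11.65, 11.60, 11.52, 11.57 and 11.55 on the wild-type arrays. The highest transgenic and lowest wild-type values nearly met, the wild-type arrays clustered tightly, and the change was -0.25 ± 0.13 (adjusted p = 0.503). After ACAT2 ASO Igf1 had 11.22, 11.08, 10.66 and 10.44, against 11.15, 10.97, 11.02 and 11.50 after control ASO, where ACAT2 ASO arrays 3 and 4 were low and the groups overlapped (change -0.31 ± 0.14, adjusted p = 0.366). The ASO change of Igf1 was -0.17 (adjusted p = 0.676) without ACAT2 ASO array 4 and -0.20 (adjusted p = 0.609) without control ASO array 4. The 3 other Igf1 probe sets had changes of -0.20, -0.27 and -0.36 for the transgene and of -0.17, -0.22 and -0.37 for the ASO. Thus all 4 Igf1 probe sets lay below 0 in both models, while no change of Igf1 passed the adjusted threshold.

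Irs1, which links the insulin receptor to its kinases, had 6.26, 6.94, 7.57, 7.26 and 6.99 in transgenic and 7.22, 7.09, 7.33, 7.32 and 7.11 in wild-type liver (change -0.21 ± 0.22, adjusted p = 0.803). It had 7.35, 7.27, 7.77 and 7.65 under ACAT2 ASO, against 7.12, 7.35, 7.46 and 6.28 under control ASO (change 0.46 ± 0.24, adjusted p = 0.441). Transgenic array 1 and control ASO array 4 were the low arrays. Without that transgenic array the transgenic change of Irs1 was -0.025 (adjusted p = 0.985), without transgenic array 3 it was -0.35, and without that control array the ASO change was 0.20. Igfbp1, a secreted IGF-binding protein under insulin control, was at 10.57, 10.76, 9.33, 10.29 and 10.37 in transgenic liver and at 9.48, 9.15, 10.48, 10.83 and 11.10 in wild-type liver. Its values covered over a log2 unit in each group and the change was 0.05 ± 0.40 (adjusted p = 0.983), or -0.21 without wild-type array 2. After ACAT2 ASO it was at 11.18, 11.20, 12.19 and 12.32, and after control ASO at 11.74, 10.24, 11.82 and 11.43 (change 0.41 ± 0.45, adjusted p = 0.767, and 0.06 without control ASO array 2). Foxo1, which lay below the 4.74 level, had 3.73, 3.67, 3.46, 3.71 and 3.54 in transgenic and 3.76, 3.55, 3.80, 3.71 and 3.84 in wild-type liver, and 3.78, 3.89, 3.92 and 3.91 under ACAT2 ASO, against 4.04, 3.89, 4.01 and 3.96 under control ASO, with overlap in both models (changes -0.11 ± 0.06 and -0.10 ± 0.07, adjusted p = 0.561 and 0.588). Insr, Foxo3 and the kinase Akt2 had changes of at most 0.10 in size by their brightest probe sets, and Igfbp2, another IGF-binding protein, of 0.06 ± 0.17 and 0.24 ± 0.19. The other Insr probe sets lay below the 4.74 level. Their changes were -0.11 and -0.0049 for the transgene, and 0.14 and 0.10 for the ASO, where the brightest had -0.09. Their differences between the models were -0.25 ± 0.08 and -0.10 ± 0.07, against 0.05 ± 0.13 for the brightest.

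Within the urea cycle, Cps1, the mitochondrial enzyme that takes in ammonia, had 12.70, 12.82, 12.47, 12.67 and 12.67 in transgenic liver and 12.88, 12.74, 12.79, 12.69 and 12.80 in wild-type liver. Transgenic array 3 was low, the groups overlapped, and the change was -0.12 ± 0.05 (adjusted p = 0.454), or -0.067 (adjusted p = 0.695) without that array. Cps1 had 12.85, 12.86, 12.88 and 12.89 under ACAT2 ASO, against 12.75, 12.87, 12.81 and 12.86 under control ASO (change 0.05 ± 0.06, adjusted p = 0.821). Ass1, argininosuccinate synthase, had 10.83, 11.02, 10.12, 11.23 and 11.00 in transgenic liver and 11.56, 11.00, 11.17, 11.44 and 11.04 in wild-type liver. Its change was -0.40 ± 0.16 (adjusted p = 0.362), or -0.22 without transgenic array 3, which lay far below the rest. After ACAT2 ASO Ass1 had 10.89, 10.90, 11.09 and 11.04, against 11.23, 11.34, 11.02 and 11.30 after control ASO, and control array 3 was the one that overlapped (change -0.24 ± 0.18, adjusted p = 0.625). A second Ass1 probe set had changes of -0.04 ± 0.53 and 0.55 ± 0.60, standard errors far above those of the first.

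For the remaining urea cycle enzymes, Otc, Asl and Arg1, the adjusted p was 0.479 or more in both models. Otc, ornithine transcarbamylase, had 11.68, 11.75, 11.71, 11.83 and 11.64 in transgenic and 11.80, 11.55, 11.76, 11.69 and 11.77 in wild-type liver, and 11.47, 11.76, 11.71 and 11.68 under ACAT2 ASO, against 11.83, 11.74, 11.57 and 11.70 under control ASO. Its changes were 0.0054 ± 0.06 and -0.06 ± 0.07 (adjusted p = 0.987 and 0.815), with a second, dim probe set at -0.0083 and 0.12. Asl, argininosuccinate lyase, had 10.25, 10.66, 10.02, 10.58 and 10.38 in transgenic and 10.75, 10.03, 10.39, 10.60 and 10.35 in wild-type liver, with array 2 low among the wild-type and array 3 among the transgenic arrays (change -0.05 ± 0.13, adjusted p = 0.942). After ACAT2 ASO it had 10.57, 10.50, 10.74 and 10.92, and after control ASO 10.88, 10.97, 10.85 and 11.05 (change -0.26 ± 0.15, adjusted p = 0.479), ACAT2 ASO array 4 being the one inside the control range. Arg1, arginase, had 12.34, 12.46, 12.11, 12.43 and 12.41 in transgenic and 12.53, 12.19, 12.47, 12.48 and 12.30 in wild-type liver, and 12.62, 12.54, 12.49 and 12.51 under ACAT2 ASO, against 12.54, 12.62, 12.47 and 12.59 under control ASO (changes -0.04 ± 0.07 and -0.02 ± 0.08, adjusted p = 0.894 and 0.964). Glud1, glutamate dehydrogenase, had changes of -0.0052 and 0.07.

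Among amino acid enzymes, Hal, the histidine ammonia-lyase that starts histidine breakdown, had the smallest p of all members in both models. It measured 9.26, 9.43, 9.25, 9.67 and 9.24 in transgenic liver and 9.72, 9.66, 10.19, 9.70 and 9.57 in wild-type liver. Only transgenic array 4 reached the wild-type range, and the change was -0.40 ± 0.15 (adjusted p = 0.331), or -0.29 without wild-type array 3, the highest. After ACAT2 ASO Hal measured 9.43, 10.10, 9.45 and 9.40, against 10.16, 10.49, 9.84 and 10.27 after control ASO. ACAT2 ASO arrays 1, 3 and 4 lay together below every control array and array 2 lay among the controls. The change was -0.60 ± 0.17 (adjusted p = 0.112), or -0.77 (adjusted p = 0.0209) without ACAT2 ASO array 2, a setting in which Hal was the only member called. Leaving out control ASO array 2, the highest control array, the change was -0.50 (adjusted p = 0.272). Hal has a single probe set here.

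**Figure D2:**
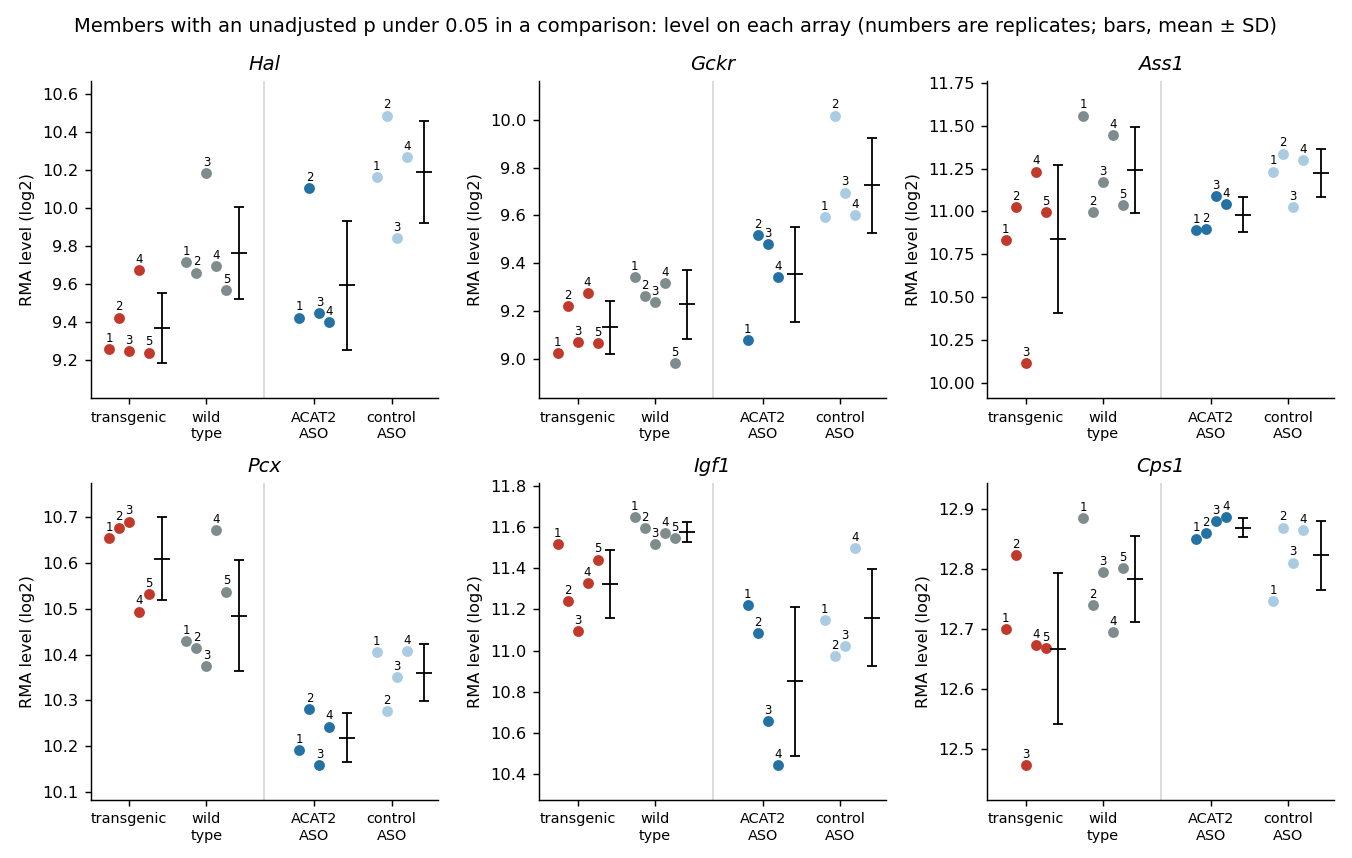
RMA log2 level on each array of the 6 members with an unadjusted p under 0.05 in a comparison, with transgenic, wild-type, ACAT2 ASO and control ASO arrays left to right, replicate numbers above the points and bars for mean ± SD. For Gckr the ACAT2 ASO arrays (9.08 to 9.52) lie below the control ASO arrays (9.59 to 10.02), and for Hal ACAT2 ASO array 2 (10.10) stands among the control arrays; levels of the models are not comparable.

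The other amino acid enzymes had smaller estimated changes. Tdo2, which opens the tryptophan ring, had 12.61, 12.59, 12.51, 12.59 and 12.50 in transgenic and 12.64, 12.36, 12.52, 12.52 and 12.59 in wild-type liver, and 12.74, 12.56, 12.66 and 12.69 under ACAT2 ASO, against 12.46, 12.59, 12.55 and 12.66 under control ASO. Its changes were 0.04 ± 0.05 and 0.10 ± 0.06 (adjusted p = 0.887 and 0.534), with a second probe set at 0.14 and 0.17, and both pairs of groups overlapped. Hpd, of tyrosine breakdown, had 12.58, 12.74, 12.62, 12.62 and 12.55 in transgenic and 12.68, 12.52, 12.65, 12.68 and 12.71 in wild-type liver, and 12.67, 12.74, 12.81 and 12.85 under ACAT2 ASO, against 12.68, 12.72, 12.65 and 12.59 under control ASO (changes -0.03 ± 0.05 and 0.11 ± 0.05, adjusted p = 0.909 and 0.410). ACAT2 ASO arrays 2 to 4 lay above all control arrays and array 1 among them. Tat, tyrosine aminotransferase, a textbook target of glucocorticoids and cyclic AMP, had changes of 0.20 ± 0.37 and 0.10 ± 0.41. Gpt, alanine aminotransferase, Prodh, proline dehydrogenase, and Oat, ornithine aminotransferase, had changes of at most 0.12 in size, with adjusted p of 0.694 or more.

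The 4 genes of methionine and transsulfuration, Mat1a (which makes S-adenosylmethionine), Gnmt (which uses it to methylate glycine), Cbs and Cth (which lead its sulfur to cysteine), had changes between -0.04 and 0.07 for the transgene and between -0.07 and 0.15 for the ASO. Their smallest adjusted p were 0.862 and 0.574, and for all 4 the 95% interval stayed within 1.5-fold in both models.

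The effects of the models were also compared directly, as the transgenic change minus the ASO change. No member was called (0 of 40), beside 1.07% of all genes (183), and 3 members (7.5%) had an unadjusted p under 0.05, beside 15.4% of all genes. They were Pcx (difference 0.27 ± 0.09, adjusted p = 0.144), Gbe1 (0.45 ± 0.20, adjusted p = 0.276) and Pfkl (-0.24 ± 0.10, adjusted p = 0.276), and the next smallest were Fbp1 (0.14 ± 0.07, adjusted p = 0.332) and Irs1 (-0.67 ± 0.33, adjusted p = 0.343). Without control ASO array 1 the difference was 0.30 (adjusted p = 0.458) for Gbe1, and without control ASO array 4 it was -0.41 (adjusted p = 0.521) for Irs1. Of the 40 members, 23 had the same sign of change in both models, Hal, Ass1 and Igf1 among them. The models share no arrays.

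Some of these genes spread widely between arrays of the same group. Of the 40 members, 12 (30%) lay in the top 10% of all genes by within-group SD, beside 14.8% of the genes above the 4.74 level. Most members lay well above that level, and the share among genes of matching level was not computed. They were G6pc with an SD of 0.89, Igfbp1 with 0.70, Tat with 0.64, Ppp1r3c with 0.61, Ppp1r3b with 0.59 and Irs1 with 0.38, followed by Igfbp2, Ass1, Slc37a4, Hal, Cbs and Gys2. Other enzymes were far tighter, with SDs of 0.06 for Fbp1, 0.07 for Hpd and 0.08 for Cps1. Without wild-type array 2, ACAT2 ASO array 1 and control ASO array 4, 12 members were again in the top 10%, 11 of them the same genes, with an SD of 0.51 for G6pc and 0.32 for Ppp1r3c.

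**Figure D3:**
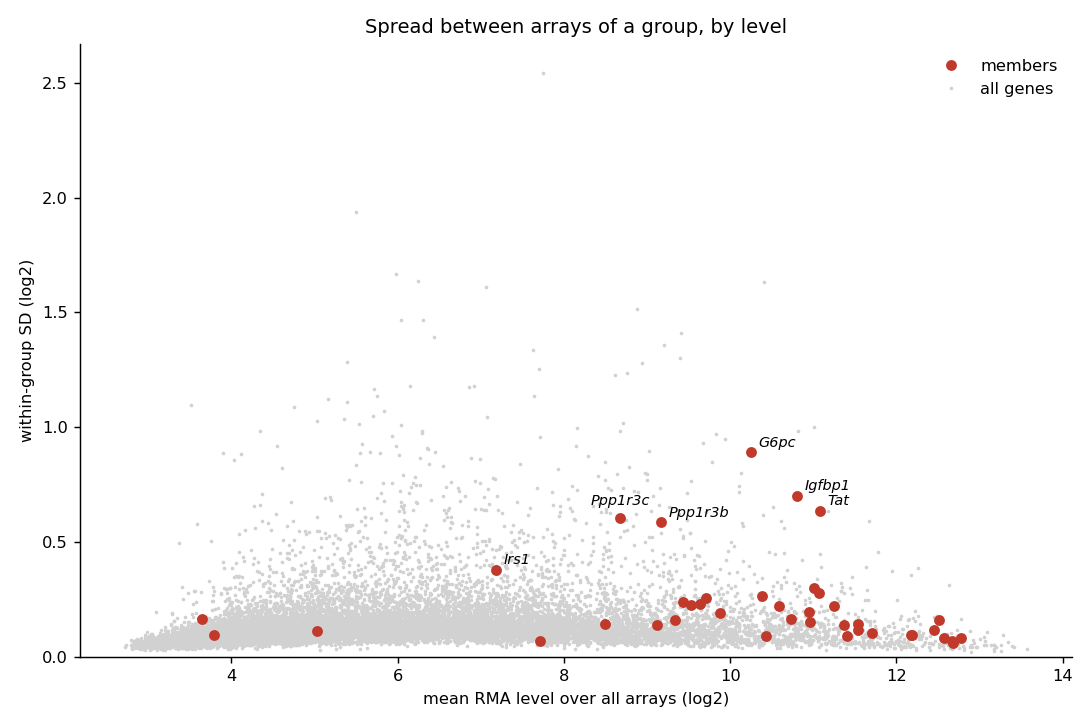
Within-group SD (log2) against mean RMA level (log2) over 18 arrays, with red points for the 40 members and grey points for all 17097 genes. G6pc, Igfbp1, Tat, Ppp1r3c, Ppp1r3b and Irs1 (SD 0.38 to 0.89) stand above most genes of their level, while enzymes such as Fbp1 (0.06) lie at the lower edge.

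The widely spread genes were not low on the same arrays throughout. Tat measured 10.71, 11.42, 9.64, 11.58 and 10.89 in transgenic liver and 11.26, 9.48, 10.83, 11.09 and 10.57 in wild-type liver, so transgenic array 3 and wild-type array 2 were low. After ACAT2 ASO Tat measured 11.52, 10.70, 12.01 and 11.96, and after control ASO 11.53, 11.33, 11.16 and 11.78. Ppp1r3b measured 8.88, 9.39, 8.38, 8.72 and 8.73 in transgenic and 9.89, 7.63, 7.99, 9.08 and 8.48 in wild-type liver, with wild-type arrays 2 and 3 low and array 1 high. It measured 10.21, 9.35, 9.74 and 10.24 under ACAT2 ASO, against 9.99, 9.45, 9.85 and 9.06 under control ASO. Ppp1r3c, its relative, ran differently, at 8.92, 8.81, 8.69, 8.71 and 8.49 in transgenic and 9.34, 9.46, 9.04, 8.55 and 8.44 in wild-type liver. It reached 9.98 on ACAT2 ASO array 1 with 7.88, 7.91 and 8.50 on the others, against 8.36, 8.16, 7.66 and 9.23 after control ASO, so its high ASO-model arrays were the ACAT2 ASO and control ASO arrays with the most macrophage marker RNA.

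**Figure D4:**
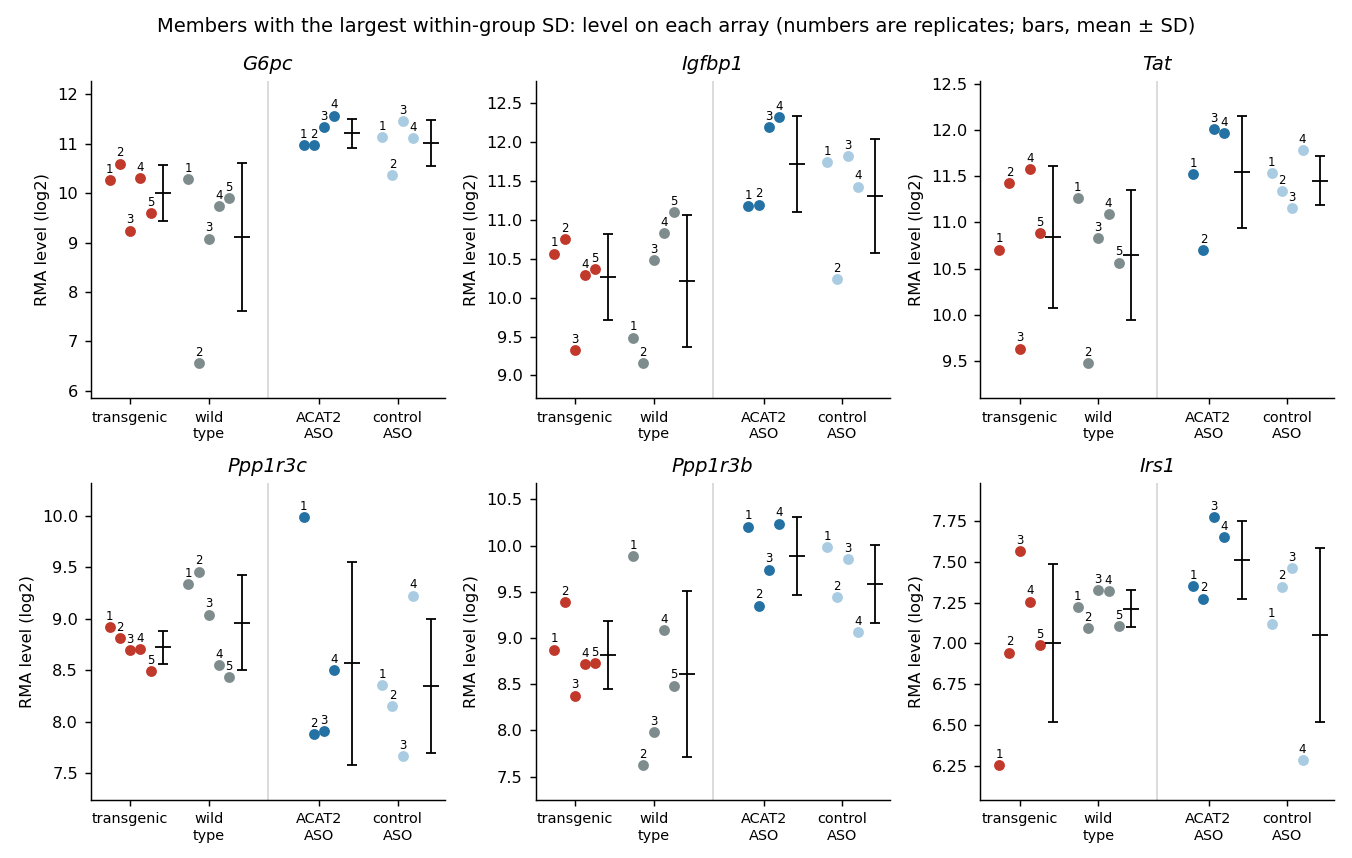
RMA log2 level on each array of the 6 members with the widest spread within groups, with transgenic, wild-type, ACAT2 ASO and control ASO arrays left to right, replicate numbers above the points and bars for mean ± SD. Transgenic array 3 is low for Igfbp1 (9.33) and Tat (9.64), and wild-type array 2 is low for G6pc (6.55), Igfbp1 (9.15), Tat (9.48) and Ppp1r3b (7.63); levels of the models are not comparable.

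Single arrays were low for many members at once. Transgenic array 3 was the lowest of its group for 15 of 40 members (37.5%), beside 22.4% of all genes. Transgenic array 5 was the lowest for 13 (32.5%), beside 20.8%, and wild-type array 2 for 23 (57.5%), beside 28.1%. ACAT2 ASO array 1 was the lowest of its group for 20 members (50%), beside 28.6%, and control ASO array 3 for 16 (40%), beside 21.7%. Transgenic array 2 was the highest of its group for 16 members (40%) and wild-type array 1 for 18 (45%), beside 19.8% and 17.4% of all genes. The mean level of 9 glucocorticoid-responsive genes was 8.45 on transgenic array 3, the lowest of its group (9.22 to 9.55 on the others). It was 9.55, the highest of that group, on transgenic array 5, which was also low for many members. In wild-type liver it was lowest on array 2, at 8.67 (8.86 to 9.39 on the others). In the ASO model it was lowest on other arrays than those low for the most members. It was 9.93 on ACAT2 ASO array 1, the highest of its group, and 9.06 on array 2, the lowest. Among control ASO arrays it was 9.48 on array 3 and 9.39 on array 2, the lowest. The mean of 7 fasting-induced genes was 7.75 and 7.92 on wild-type arrays 2 and 3, against 8.47 to 8.67 on the other wild-type arrays. Across transgenic liver it was 8.34 to 8.58, array 3 being the lowest. It was 8.93, 8.89, 9.53 and 9.75 under ACAT2 ASO, against 9.67, 9.02, 9.67 and 8.99 under control ASO. The mean of 11 feeding-induced lipogenic genes was 9.68 to 10.25 in transgenic liver, array 3 being the lowest. In wild-type liver it was 9.59 to 10.23, with 9.69 on array 2. It was 9.04 to 9.54 under ACAT2 ASO and 9.07 to 9.69 under control ASO. Actb, read as its 3′ minus 5′ probe set for RNA quality, gave 1.26 on transgenic array 3 (0.89 to 1.16 on the others) and 0.83 on wild-type array 2 (0.84 to 1.02 on the others). The same reading of Gapdh gave 0.28 on transgenic array 3 (0.11 to 0.27 on the others) and 0.19 on wild-type array 2 (0.13 to 0.23 on the others). The part of macrophage RNA, feeding state and RNA quality in these values was not tested.

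The 5 members with the largest SD were compared with each other by their deviations from the group mean on 18 arrays, a comparison chosen after their values were seen, over 10 pairs with 100000 permutations within groups. G6pc and Igfbp1 varied together (Pearson r = 0.631, permutation p = 0.00764, adjusted 0.0382, and Spearman rho = 0.705, permutation p = 0.00419, adjusted 0.0350). Within models r was 0.617 over 10 arrays of the transgenic model and 0.962 over 8 of the ASO model, and without wild-type arrays 1 and 2, the farthest in G6pc, it was 0.890. G6pc also varied with Tat (r = 0.727, permutation p = 0.00266, adjusted 0.0266, and rho = 0.608, permutation p = 0.0162, adjusted 0.0540) and with Ppp1r3b (r = 0.723, permutation p = 0.0138, adjusted 0.0459, and rho = 0.684, permutation p = 0.00701, adjusted 0.0350). Without the same 2 arrays these were 0.580 and 0.50, and within models 0.805 and 0.373 for Tat and 0.794 and 0.377 for Ppp1r3b. Without wild-type array 2 alone, r with G6pc was 0.544 for Igfbp1, 0.619 for Tat and 0.658 for Ppp1r3b, below the value with all arrays in each case. For Igfbp1 with Tat r was 0.547 (permutation p = 0.0292, adjusted 0.0585) and rho 0.323 (permutation p = 0.210, adjusted 0.301), and for Igfbp1 with Ppp1r3b r was 0.254 (permutation p = 0.434, adjusted 0.543). For Tat with Ppp1r3b r was 0.600 (permutation p = 0.0186, adjusted 0.0464) but rho 0.50 (permutation p = 0.0507, adjusted 0.127). Ppp1r3c followed none of the other 4, with r between -0.37 and 0.06 and adjusted permutation p of 0.282 or more. Arrays share their depth of signal and cell makeup across genes, so these are descriptions of variation between samples.

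**Figure D5:**
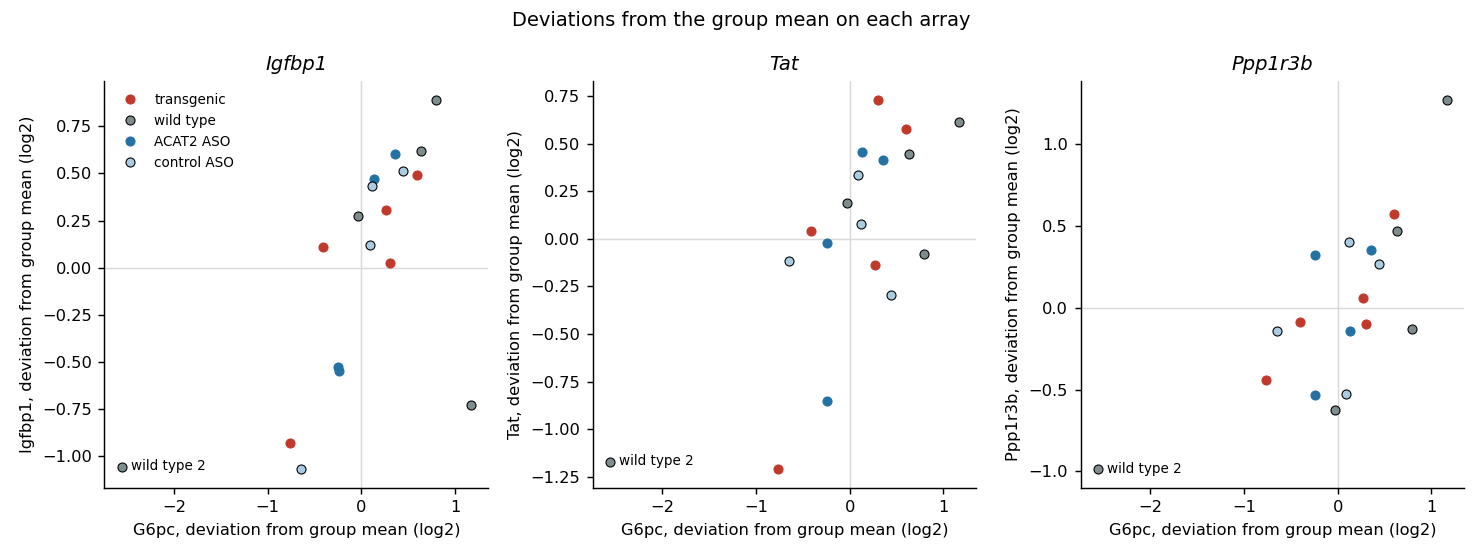
Deviation of Igfbp1, Tat and Ppp1r3b (log2, vertical axes) from the group mean against that of G6pc (log2, horizontal axis), 1 point per array, coloured by group as in the legend, with wild-type array 2 named. Igfbp1 follows G6pc on most arrays except wild-type array 1, at the lower right (r = 0.631 with all arrays and 0.890 without wild-type arrays 1 and 2).

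Other genes of the same pathways, from lists chosen with earlier results of these data known, gave 1 call in the model comparisons and 4 for the difference between the models. Aadat, an aminotransferase of kynurenine and aminoadipate in tryptophan and lysine breakdown, fell after ACAT2 ASO, with 8.74, 9.19, 8.997 and 9.15 on the ACAT2 ASO arrays against 9.62, 9.46, 9.52 and 9.58 on the control ASO arrays. Every ACAT2 ASO array lay below every control array, array 1 the lowest, and the change was -0.52 ± 0.09 (adjusted p = 0.0119). The call held when any 1 of the 8 ASO-model arrays was left out (adjusted p from 0.00646 to 0.0497) and ended in a fit on the ASO arrays alone (adjusted p = 0.0996). Of the 34 measured genes of amino acid breakdown outside the members, 27 lay below 0 after ACAT2 ASO and 7 above, with a median of -0.13, and 1 was called. Their mean level was 8.50 on ACAT2 ASO array 1 and 8.69 to 8.77 on the other ACAT2 ASO arrays, against 8.74 to 8.91 after control ASO. Over all genes 0.597% were called, 49.7% lay above 0 and the median was -0.00056. Pcca, of propionyl-CoA carboxylase, had a change of -0.48 ± 0.11 (adjusted p = 0.0509) just outside the threshold. A second, dim Pcca probe set went the other way, with an ASO change of 0.39 ± 0.12. In transgenic liver 18 of these genes lay above 0 and 16 below, with 0 called, and Tha1, a threonine aldolase, had the smallest p (change 0.28 ± 0.07, adjusted p = 0.0873).

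For the difference, the transgenic change minus the ASO change, 4 of these genes were called, all above 0, beside 1.07% of all genes (131 above 0 and 52 below). They were 2 of the 34 genes of amino acid breakdown, 1 of 19 for glycogen and 1 of 37 for insulin, IGF and glucagon signalling, with 0 in the other 3 lists. Aadat had a difference of 0.56 ± 0.12 (adjusted p = 0.0385). In the transgenic model it had 9.49, 9.64, 9.64, 9.43 and 9.42 in transgenic and 9.55, 9.26, 9.52, 9.49 and 9.61 in wild-type liver, which overlapped (change 0.04 ± 0.08, adjusted p = 0.928). Pcca had a difference of 0.63 ± 0.14 (adjusted p = 0.0452). It measured 9.13, 9.04, 9.08, 9.08 and 9.02 in transgenic and 8.98, 8.80, 8.76, 9.06 and 9.02 in wild-type liver (change 0.15 ± 0.10, adjusted p = 0.618). It measured 8.55, 9.03, 8.64 and 8.74 under ACAT2 ASO, against 9.52, 9.15, 9.0004 and 9.19 under control ASO, where ACAT2 ASO array 2 lay just above the lowest control array. The second, dim probe set of Pcca had a difference of -0.36 ± 0.16. With the mean of its probe sets in place of the brightest, the difference for Pcca was 0.13 (adjusted p = 0.635).

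Gaa, the lysosomal enzyme that breaks down glycogen, had a difference of 0.38 ± 0.08 (adjusted p = 0.0371). It measured 7.64, 7.66, 7.85, 7.58 and 7.73 in transgenic and 7.48, 7.48, 7.48, 7.60 and 7.53 in wild-type liver (change 0.18 ± 0.06, adjusted p = 0.229). It measured 7.19, 7.36, 7.26 and 7.17 under ACAT2 ASO, against 7.34, 7.52, 7.52 and 7.41 under control ASO (change -0.21 ± 0.06, adjusted p = 0.137). Its groups overlapped in both models. Sik2, a salt-inducible kinase of the glucagon and insulin pathways, had a difference of 0.40 ± 0.09 (adjusted p = 0.0388). It measured 7.07, 7.02, 7.09, 7.11 and 6.96 in transgenic and 6.87, 6.95, 6.82, 6.94 and 6.90 in wild-type liver (change 0.15 ± 0.06, adjusted p = 0.327), and these groups did not overlap. It measured 6.31, 6.46, 6.13 and 6.25 under ACAT2 ASO, against 6.55, 6.62, 6.38 and 6.56 under control ASO (change -0.24 ± 0.07, adjusted p = 0.0985), with overlap. None of the 4 calls for the difference held in every leave-one-out fit, with adjusted p reaching 0.0833 for Gaa (without ACAT2 ASO array 4), 0.0854 for Sik2 (without control ASO array 2), 0.0856 for Aadat (without control ASO array 1) and 0.0938 for Pcca (without ACAT2 ASO array 3). Each call ended in most of 26 alternative fits, leave-one-out fits among them. It held in 9 of the 26 for Gaa, 10 for Sik2, 7 for Aadat and 7 for Pcca. All 4 calls also ended without the 3 arrays of high macrophage markers, at adjusted p of 0.122 for Gaa, 0.107 for Sik2, 0.0940 for Aadat and 0.140 for Pcca. The differences in that smaller fit were 0.37 for Gaa, 0.40 for Sik2, 0.40 for Aadat and 0.54 for Pcca. Those of Gaa and Sik2 were thus nearly unchanged.

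In the other pathway lists 0 genes were called in either model. For 25 further genes of gluconeogenesis, glycolysis and glucose transport, 12 lay above 0 and 13 below for the transgene and 8 above and 17 below for the ASO, where Tpi1 and Gapdh, both glycolytic enzymes, had changes of -0.20 ± 0.05 and -0.24 ± 0.07 (adjusted p = 0.0797 and 0.119). For Tpi1 and Gapdh every ACAT2 ASO array lay below every control ASO array. The ASO groups did not overlap, in either direction, for 9.05% of all genes. Among 19 further glycogen genes the medians were -0.00080 and 0.0017, with Pgm2, a phosphoglucomutase, at 0.48 ± 0.11 in the transgenic model (adjusted p = 0.0890). Among 37 further genes of insulin, IGF and glucagon signalling the medians were -0.03 and -0.05, with the kinase Mtor at 0.20 ± 0.05 in the transgenic model (adjusted p = 0.161) and Trib1, a pseudokinase, at -0.34 ± 0.09 in the ASO model (adjusted p = 0.0881). Among 19 further genes of the urea cycle and nitrogen transport the medians were 0.05 and -0.07. There the ammonia transporter Rhbg had a change of 0.51 ± 0.12 in the transgenic model (adjusted p = 0.0873) and the glutamate transporter Slc1a2 one of -0.52 ± 0.12 in the ASO model (adjusted p = 0.0563), both known as pericentral genes. Among 20 further genes of methionine and one-carbon use the medians were -0.02 and -0.04. These 5 lists, of 25, 19, 37, 19 and 20 genes, were also counted at an unadjusted p under 0.05. In the transgenic model they held in turn 3, 3, 4, 3 and 0 genes above 0 and 1, 1, 2, 0 and 0 below. All genes gave 10.9% there (1087 above 0 and 772 below). In the ASO model the lists held 1, 0, 3, 0 and 0 above 0 and 4, 1, 7, 2 and 2 below. All genes gave 13.3% there (971 above 0 and 1305 below of 17097). The 34 further genes of amino acid breakdown held 1 above and 1 below for the transgene. For the ASO they held 1 above and 9 below. No test of a list was made.

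Since urea cycle and histidine-degrading enzymes belong to periportal hepatocytes, markers of the liver zones were read beside them. Of 8 measured periportal markers, none of them a member, 7 lay below 0 in transgenic against wild-type liver (median -0.11) and 6 of 8 after ACAT2 ASO against control ASO (median -0.27), with 0 called in each by limma. At an unadjusted p under 0.05, 1 and 3 of them lay below 0, beside 772 and 1305 of the 17097 genes. Their mean level per array ranged from 9.31 to 9.67 in transgenic and from 9.38 to 10.02 in wild-type liver, and from 8.57 to 8.96 under ACAT2 ASO, against 8.90 to 9.19 under control ASO. Of 11 pericentral markers, with Rhbg and Slc1a2 from the nitrogen transport list among them, 3 lay above 0 for the transgene and 7 for the ASO (medians -0.03 and 0.15), with 0 called. At an unadjusted p under 0.05, 1 lay above 0 and 0 below for the transgene, and 1 above and 1 below for the ASO. Their mean level per array was 8.71 to 9.02 in transgenic and 8.75 to 8.92 in wild-type liver. It was 8.61 to 8.73 under ACAT2 ASO and 8.55 to 8.81 under control ASO. The part of zonation in the values of Hal, Ass1 and Asl was not tested.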

How the data were processed

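Liver RNA of 18 samples was read on Affymetrix 3′ expression arrays of 45141 probe sets, after amplification by 3′-IVT per the labels' protocols. The deposited values are log2 signals that the authors made by RMA, per the submitters' processing notes. Nothing further was normalized here, and 0 columns of other series were present. Control probe sets were left out (104), 28898 had 1 gene symbol in the platform annotation, 551 had several and 15588 had none, and the brightest single-symbol probe set stood for a gene (17097 genes, no filter on low values). No 2 arrays held identical values.

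One limma fit (version 3.58.1, R 4.3.3) gave the 4 group means, both comparisons and their difference, with Benjamini-Hochberg adjustment over all genes and a call at an adjusted p under 0.05. It was tested on simulated data. Correlations used scipy 1.17.1 and Python 3.11.15, and plots used matplotlib 3.10.9. Promoter sequences are RefSeq's. The number of arrays limits the precision.

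Members and lists were chosen with earlier results of these data known. Values on every array are given for the 10 members with the smallest p in either comparison, the 5 with the smallest p for the difference, Pck1, G6pc, Igfbp1 and the urea cycle enzymes. The widely spread members were picked after their values were seen. Related genes are named where called or among up to 2 per list and comparison with the smallest p. Alternatives were a filter on low values, centring, quantile normalization, the treatment of probe sets, the arrays in the fit, the variance prior, array weights, a replicate block, a fold minimum, a stricter threshold and leaving out arrays. The spread without wild-type array 2, alone or with ACAT2 ASO array 1 and control ASO array 4, was an alternative chosen after seeing the data, as were correlations without wild-type array 1 or 2 alone. Levels of the ACAT2 transcript itself are not reported.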

Additional observations from a re-analysis of the deposited data

Results flagged for a closer look

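In 6 of 160 combinations of a member and a group, 1 array lay far from the others by Dixon's test, where chance gives about 1 in 20. Hal on ACAT2 ASO array 2 was at 10.1, against 9.401 to 9.449 on the other ACAT2 ASO arrays. Hal on wild-type array 3 was at 10.19, against 9.569 to 9.718 on the other wild-type arrays. Wild-type array 2, the array with the most macrophage marker RNA, was low for 3 members. It had 11.46 for Slc2a2 (11.67 to 11.74 on the others), 8.288 for Foxo3 (8.554 to 8.651) and 10.51 for Gpt (10.89 to 10.98). Pygl on control ASO array 2 was at 11.28, against 11.1 to 11.13 on the other control arrays. For the difference between the models 0 members were called by limma, and 0 had groups apart in opposite directions. Among the other genes of the same pathways, 4 were called for that difference, the transgenic change minus the ASO change. It was 0.38 for Gaa, 0.40 for Sik2, 0.56 for Aadat and 0.63 for Pcca on the log2 scale. Their adjusted p by limma were 0.0371, 0.0388, 0.0385 and 0.0452. The calls held in only 9, 10, 7 and 7 of 26 alternative fits, and each ended in at least 1 fit without a single array.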

How the results depend on the processing

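Of 71 recomputed counts of called members, 69 were 0. The exceptions were both in the ASO comparison. Array weights called 2 members, Gckr (-0.40, adjusted p = 0.0379) and Hal (-0.63, adjusted p = 0.0477), with 465 of all genes called, and leaving out 1 array at a time called 0 to 1 members, the 1 being Hal without ACAT2 ASO array 2. Of 882 recomputed changes of named members, 854 kept their direction and side of the threshold, 3 passed the threshold and 25 turned sign, the cause of which was not tested. Aadat, counted apart, lost its ASO call with the ASO arrays alone (adjusted p = 0.0996) and with a replicate block (0.1302). Quantile normalization within each model ended the difference calls of Gaa, Sik2, Aadat and Pcca (adjusted p = 0.0631, 0.0578, 0.0764 and 0.0779). Centring arrays on their medians ended those of Gaa, Aadat and Pcca (0.0555, 0.0590 and 0.0566). Trended and robust variance ended those of Gaa and Sik2 (0.0567 and 0.0590).

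Averaging all probe sets per gene, the transgenic change of Otc was -0.0015 and the ASO changes were 0.15 for Ass1, -0.0033 for Pfkl and 0.032 for Otc. With array weights the transgenic change of Otc was -0.011. Without the 3 arrays that stand apart, transgenic changes were -0.0067 for Tdo2, -0.21 for Igfbp1 and -0.035 for Otc, and the ASO change of Otc was 0.0038. Leaving out 1 array at a time, transgenic changes ranged from -0.15 to 0.042 for Asl, from -0.0067 to 0.063 for Tdo2, from -0.21 to 0.28 for Igfbp1, from -0.035 to 0.027 for Otc and from -0.094 to 0.016 for Arg1. ASO changes then ranged from -0.025 to 0.34 for G6pc, from -0.10 to 0.0064 for Otc and from -0.044 to 0.0073 for Arg1.

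With the replicate number as a block, 0, 0 and 0 members were called for the transgene, the ASO and their difference (2, 18 and 12 of all genes), and the differences of Gaa, Sik2, Aadat and Pcca lost their calls (adjusted p = 0.116, 0.0866, 0.156 and 0.145). Deviations of same-numbered arrays correlated between -0.483 and 0.469, and 1 of 9 arrays matched its own number best. Such deviations also carry the cell makeup of each array, so they cannot decide whether the numbers pair the arrays.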
